A study of Mus musculus with 91 samples.

Results

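The synaptotagmin family was followed through single layer 5 pyramidal neurons (Pyrs) of mouse primary visual cortex. Its members here are the 10 genes *Syt1*, *Syt2*, *Syt3*, *Syt4*, *Syt5*, *Syt6*, *Syt7*, *Syt11*, *Syt13* and *Syt17*, chosen by name from the 34745 gene rows of the deposited tables, which hold 17 genes named as a synaptotagmin. No measured value was used in the choice, although earlier results of these data were known when it was made.

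The study compared 47 Pyr←LP neurons with 44 Pyr←ORBvl neurons by Patch-seq, in which a neuron is recorded with a patch pipette and its contents are then drawn up for RNA sequencing. Pyr←LP and Pyr←ORBvl stand for L5 Pyrs of the kinds that receive input from the lateral posterior thalamic nucleus (LP) and from the ventrolateral orbitofrontal cortex (ORBvl), respectively. All neurons carried the genotype label WT, came from adult mice of both sexes, and received no treatment that the labels name. In these recordings the authors assigned the type from the hyperpolarization-activated current (Ih) with a classifier, so in the sequenced neurons a type is an electrical class. The labels name no mouse, and several neurons share one, so p-values measure the spread between neurons rather than between mice.

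Synaptotagmins are membrane proteins of vesicles and the plasma membrane with a pair of C2 domains. In the best known members these domains bind calcium and phospholipid and drive the fusion of vesicles prepared by the SNARE proteins, and in other members the calcium-binding residues are partly or wholly lost. *Syt1* and *Syt2* are the fast sensors of transmitter release, *Syt7* is a slower sensor of high affinity, and *Syt4*, *Syt11* and *Syt13* belong to the members that bind calcium weakly or not at all.

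The exclusion rule of the study, applied to the deposited counts, left 83 neurons (44 Pyr←LP and 39 Pyr←ORBvl), which are used below unless all 91 are named. Total counts lay between 2545 and 1948982 (median 399786) in the kept Pyr←LP neurons and between 2410 and 1699215 (median 443593) in the kept Pyr←ORBvl neurons, so the value of 1 count differs widely between neurons. *Slc17a7*, the vesicular glutamate transporter of cortical excitatory neurons, had a count in 32 of 44 Pyr←LP and 31 of 39 Pyr←ORBvl neurons. *Fezf2*, a layer 5 marker, had one in 18 of 44 and 27 of 39. Markers of other cells were also present. At least 1 of the 6 GABAergic genes examined had a count in 18 of 44 and 18 of 39 neurons, with *Slc32a1* at 0 in all 39 Pyr←ORBvl neurons, and summed values reached 990 and 1116 CPM (counts divided by the library total and multiplied by 1000000). The microglial sum over 3 genes was between 0 and 6787 CPM in Pyr←LP (median 201) and between 0 and 3709 CPM in Pyr←ORBvl neurons (median 349). The oligodendrocyte sum, nearly all *Mbp*, had medians of 800 and 1629 CPM, with *Mog* at 0 in every Pyr←LP neuron. The part of such transcripts in the results below was not tested. Among the 91 neurons, Pyr←ORBvl neurons 5 and 11 were nearly identical (Pearson r of log2 CPM = 0.993, against 0.717 for the next pair). Both were set aside by the exclusion rule, so they touch only the values for all 91 neurons. Neurons are numbered within a type in the order of the deposit.

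The members *Syt1*, *Syt11*, *Syt4*, *Syt5* and *Syt13* were broadly detected and the others were sparse. *Syt1* and *Syt11* each had at least 1 count in 79 of the 83 neurons, *Syt4* in 71, *Syt5* in 66 and *Syt13* in 51. *Syt3* followed with 36 neurons and *Syt7* with 32, whereas *Syt2* was found in 12, *Syt17* in 4 and *Syt6* in 3. A neuron of either type held a median of 5 members, with a range from 2 to 9 in Pyr←LP and from 2 to 8 in Pyr←ORBvl neurons. *Syt1*, *Syt4*, *Syt5* and *Syt11* were all present in 29 of 44 Pyr←LP and 26 of 39 Pyr←ORBvl neurons, and with *Syt13* added the numbers were 26 and 11.

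**Figure D1:**
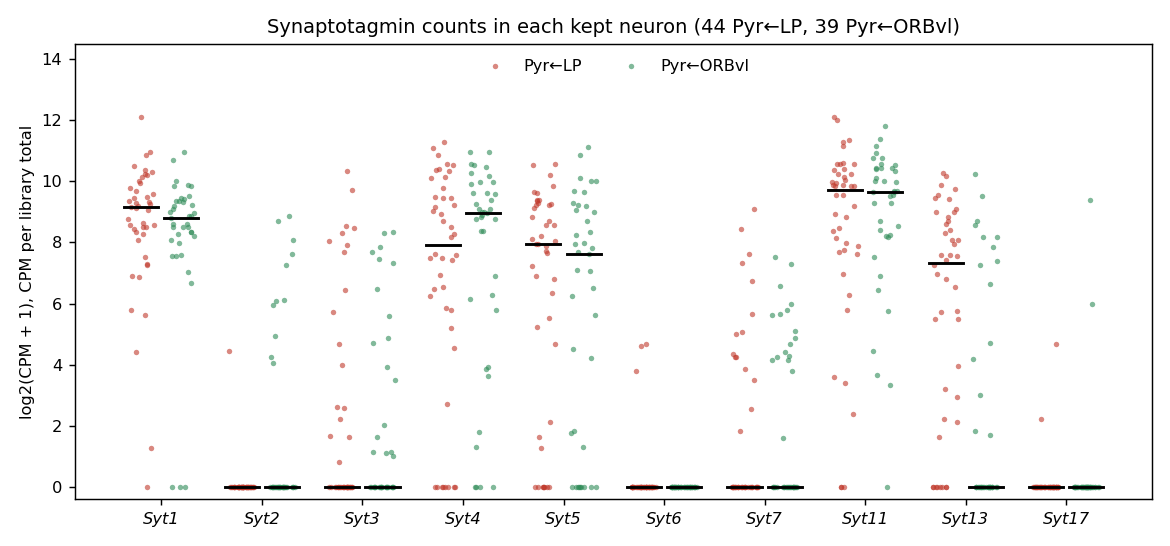
Counts of the 10 members in each kept neuron, as log2(CPM + 1) with CPM per library total, for 44 Pyr←LP (red) and 39 Pyr←ORBvl (green) neurons, with black lines at the medians. The lines lie close together for *Syt1*, *Syt5* and *Syt11*, while that of *Syt13* lies at 0 in Pyr←ORBvl neurons only.

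Levels were compared between genes by FPKM, which divides by gene length. In Pyr←LP neurons the mean FPKM was 139 ± 152 (SD, n = 44) for *Syt5* and 139 ± 167 for *Syt4*, followed by 89.8 ± 95.5 for *Syt11*, 72.7 ± 87.7 for *Syt13* and 44.3 ± 47.1 for *Syt1*. In Pyr←ORBvl neurons it was 150 ± 144 (SD, n = 39) for *Syt4*, 143 ± 200 for *Syt5*, 89.0 ± 76.2 for *Syt11*, 32.5 ± 25.6 for *Syt1* and 27.5 ± 64.1 for *Syt13*. The mean of *Syt13* was above that of *Syt1* in Pyr←LP neurons, where 24 of 44 neurons had it higher and 20 lower, and below it in Pyr←ORBvl neurons, where *Syt1* was higher in 28 of 39 and lower in 8. The remaining members had mean FPKM of 20.3 (*Syt3*), 5.06 (*Syt7*), 0.127 (*Syt6*), 0.0951 (*Syt17*) and 0.0476 (*Syt2*) in Pyr←LP neurons, and of 9.16 (*Syt3*), 4.57 (*Syt2*), 3.07 (*Syt7*), 2.76 (*Syt17*) and 0 (*Syt6*) in Pyr←ORBvl neurons.

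Neighbours at the top of this order could not be separated neuron by neuron. *Syt5* was above *Syt4* in 20 of 44 Pyr←LP neurons and below it in 22, and *Syt4* was above *Syt5* in 20 of 39 Pyr←ORBvl neurons and below it in 17. *Syt11* was above *Syt13* in 22 Pyr←LP neurons and below it in 21. Clearer steps were those from *Syt1* to *Syt3* in Pyr←LP neurons (higher in 35, lower in 8) and from *Syt11* to *Syt1* in Pyr←ORBvl neurons (higher in 29, lower in 10). The member with the highest FPKM was *Syt4* or *Syt5* in 32 of the Pyr←LP neurons (16 each), and *Syt4* in 18 and *Syt5* in 14 of the Pyr←ORBvl neurons.

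The order also rests on the length used. The deposited FPKM imply 15865 bases for *Syt1* and 10469 for *Syt11*, whereas the exons of these genes cover 8338 and 5205 bases in the GENCODE M21 annotation of GRCm38. With the GENCODE lengths, *Syt11* led the family in both types (181 and 179 CPM per kilobase), ahead of *Syt5* (152 and 156) and *Syt4* (139 and 151). For *Syt13* the lengths agree at 3761 bases, and with the GENCODE lengths *Syt1* was above *Syt13* in both types (84.3 against 72.7 CPM per kilobase in Pyr←LP and 61.9 against 27.5 in Pyr←ORBvl neurons).

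*Syt1* (chromosome 10, 108497650 to 109010982, minus strand of GRCm38) encodes the main calcium sensor of fast release in forebrain neurons. Its values lay between 0 and 4396 CPM in Pyr←LP neurons (median 566, 43 of 44 with a count) and between 0 and 1972 CPM in Pyr←ORBvl neurons (median 446, 36 of 39 with a count). The quartiles overlapped (301 to 907 and 283 to 658 CPM). The highest value belonged to Pyr←LP neuron 8, with 1194 counts, and the next highest, 1997 CPM in Pyr←LP neuron 47, was close to the highest Pyr←ORBvl value. The 3 Pyr←ORBvl neurons without a *Syt1* count were not shallow, with totals of at least 114069 counts, while the 1 such Pyr←LP neuron had 15893.

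In the comparison between the types, edgeR's quasi-likelihood test with TMM scaling called 170 of 7542 genes (2.25%) with a Benjamini-Hochberg adjusted p below 0.05 and more than a 2-fold difference. Of the members 7 could be tested and 1 was called, *Syt1*, against that background of 2.25% for all genes. Its log2 fold change (Pyr←ORBvl over Pyr←LP) was -1.75 (SE 0.52, adjusted p = 0.0404, edgeR), which is higher expression in Pyr←LP neurons. This call was lost without Pyr←LP neuron 8. That neuron had 1575 detected genes from 271608 counts and a TMM factor of 0.0978, where the next lowest factor was 0.506, and scaling raised its *Syt1* to 51619 CPM, or 65.8% of the sum over the 44 Pyr←LP neurons. Without neuron 8, the log2 fold change of *Syt1* was -0.25 (SE 0.46, edgeR adjusted p = 0.996), and 66 of 7537 genes (0.876%) were called in place of 170. With single title prefixes (the first part of the neurons' names) left out, *Syt1* was called in 11 of 17 fits. Without prefix 822, which holds neuron 8, its log2 fold change was -0.27 (edgeR adjusted p = 1.000). Without prefix 830 or 831, which do not hold that neuron, it was -0.80 and -0.71 (edgeR adjusted p = 0.876 and 0.938), and the TMM factor of neuron 8 was then 0.402 and 0.422, which put its *Syt1* at 12592 and 12069 CPM. In the other 3 fits without a call it was between -1.81 and -1.78, with edgeR adjusted p from 0.0504 to 0.0592. TMM scales each library against a reference library. This was Pyr←ORBvl neuron 18 (13095 counts, prefix 830) in the main fit, Pyr←LP neuron 21 without prefix 830 and Pyr←LP neuron 37 without prefix 831. The part of the reference in these changes was not tested.

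**Figure D2:**
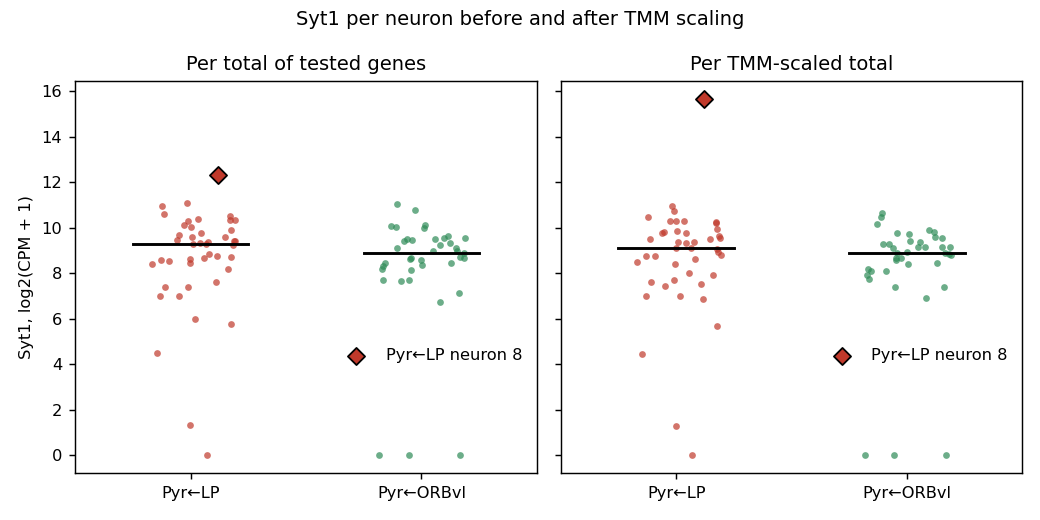
*Syt1* in each kept neuron as log2(CPM + 1), with CPM computed from the total over tested genes (left) and from the same total multiplied by the TMM factor (right). Black lines are medians, and the diamond is Pyr←LP neuron 8, which moves from 5049 to 51619 CPM.

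With another scaling, tool or covariate, *Syt1* kept the sign without a call. The log2 fold change was -0.47 without TMM (edgeR adjusted p = 0.936), -0.75 with DESeq2 (adjusted p = 0.845) and -0.82 with the title prefix of the neurons as a block (edgeR adjusted p = 0.730). The mean CPM of *Syt1* was higher in Pyr←LP neurons in 11 of the 14 title prefixes that held both types. On the scale of library totals the means were 703 ± 747 CPM (SD, n = 44) and 516 ± 406 CPM (SD, n = 39).

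*Syt2* (chromosome 1, 134646677 to 134762593, plus strand), the fast sensor best known from hindbrain and from Pvalb interneurons, was absent from most libraries. In Pyr←LP neurons it had 8 counts in neuron 23 (20.6 CPM) and none in the other 43. In Pyr←ORBvl neurons it had a count in 11 of 39 (28.2%, Wilson 95% confidence interval 16.5% to 43.8%), with between 15.7 and 462 CPM and a median of 68.4 CPM among those 11. The highest were neurons 42 and 1, with 406 and 370 counts, and 4 of the 11 had 3 counts or fewer. The single Pyr←LP value was above 2 of these 11 CPM values.

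*Syt2* did not reach the filter of 5 counts in 10 neurons and was not part of the main test. With a filter of 1 count in 10 neurons, chosen after the data were seen, edgeR called it (223 of 8941 genes were called, or 2.49%) and did not call *Syt1* (adjusted p = 0.661). Fisher's exact test of the detected share did not pass after adjustment over those genes. *Syt2* passed that filter through the Pyr←ORBvl neurons, so neither outcome is read as a test and the values above stand as a description. Within title prefixes, the share was higher in Pyr←ORBvl neurons in 9 and equal in 5 of 14. No prefix could point the other way, since the single Pyr←LP neuron with *Syt2* had prefix 907, which held no Pyr←ORBvl neuron. The tally thus restates the shares above.

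The depth and markers of the 11 Pyr←ORBvl neurons with *Syt2* are given beside those of the other 28, without a test. Their totals ran from 13095 to 994228 counts (median 160015), within the range of the others (2410 to 1699215, median 464076). *Pvalb* had a count in 6 of the 11 and in 7 of the 28, and at least 1 of *Slc32a1*, *Gad1* and *Gad2* in 4 of the 11 and 4 of the 28. *Slc17a7* was present in 9 of the 11 and 22 of the 28, and *Fezf2* in 8 and 19. The part of interneuron RNA in the *Syt2* values was not tested.

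*Syt5*, found on secretory vesicles, and the members of the plasma membrane, *Syt3* and *Syt6*, are also calcium-binding, as is *Syt7*. *Syt5* (chromosome 7, 4539765 to 4547541, minus strand) was between 0 and 1529 CPM in Pyr←LP neurons (median 246) and between 0 and 2248 CPM in Pyr←ORBvl neurons (median 195). The quartiles overlapped (19.1 to 604 and 1.94 to 560 CPM), 2 Pyr←ORBvl neurons lay above every Pyr←LP neuron, and the log2 fold change was 0.09 (SE 0.61, edgeR adjusted p = 0.991). *Syt3* (chromosome 7, 44384102 to 44400187, plus strand) had a median of 0 CPM in both types, with a highest value of 1307 CPM in Pyr←LP and 324 CPM in Pyr←ORBvl neurons. It was detected in 18 of 44 and 18 of 39 neurons, and the log2 fold change was -1.11 (SE 0.90, edgeR adjusted p = 0.847). A single Pyr←LP neuron held 32.1% of all *Syt3* CPM of its type.

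*Syt7* (chromosome 19, 10389090 to 10453180, plus strand) was found in 15 of 44 Pyr←LP and 17 of 39 Pyr←ORBvl neurons, with highest values of 543 and 181 CPM. The log2 fold change was -0.55 (SE 0.89, edgeR adjusted p = 0.964), and its sign turned in other fits. *Syt3* and *Syt7* occurred together in 9 neurons of each type. *Syt6* (chromosome 3, 103575231 to 103645569, plus strand) had 2, 5 and 29 counts in 3 Pyr←LP neurons. It had none in the 39 Pyr←ORBvl neurons, and 0 of 39 allows a share of neurons with a count of up to 7.69% when the limit is set at 3 of 39 (the upper Wilson limit is 8.97%). The share in Pyr←LP neurons, 6.82%, lies below either limit.

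Among the members with weak or no calcium binding, *Syt11* and *Syt4* were high in both types. *Syt11* (chromosome 3, 88744700 to 88775164, minus strand) is known from vesicle recycling and has been linked to parkin. It lay between 0 and 4441 CPM (median 839) in Pyr←LP and between 0 and 3560 CPM (median 797) in Pyr←ORBvl neurons. The log2 fold change was 0.06 (SE 0.48, edgeR adjusted p = 0.991). Of the 4 neurons without a *Syt11* count, 3 had fewer than 100000 counts in all.

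*Syt4* (chromosome 18, 31437808 to 31447406, minus strand), which is carried on dense-core vesicles and induced by activity, lay between 0 and 2519 CPM (median 243) in Pyr←LP and between 0 and 1986 CPM (median 500) in Pyr←ORBvl neurons. The medians differed by more than those of *Syt11*, but the quartiles overlapped (49.9 to 755 and 62.1 to 877 CPM) and the log2 fold change was 0.08 (SE 0.57, edgeR adjusted p = 0.991). *Syt4* and *Syt1* were among the pan-neuronal genes by which the study judged its sampling. The antisense gene *Gm26658* shares 566 exon bases with *Syt4* and had a count in 46 of the 91 neurons. The counting is not stated to use strand, so reads within the shared bases cannot be assigned to one gene of the pair. The same holds for 505 exon bases that *Syt6* shares with *Atg4a-ps* and 384 that *Syt7* shares with *Gm26859*.

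*Syt13* (chromosome 2, 92915098 to 92956058, plus strand), a member without the calcium-binding residues that is known from endocrine cells and motor neurons, had the largest difference in detected share of the 10 members. It had a count in 36 of 44 Pyr←LP neurons (81.8%, Wilson 95% confidence interval 68.0% to 90.5%) and in 15 of 39 Pyr←ORBvl neurons (38.5%, 24.9% to 54.1%). Values ran from 0 to 1226 CPM with a median of 161 in Pyr←LP neurons, and from 0 to 1217 CPM with a median of 0 in Pyr←ORBvl neurons. The groups overlapped at both ends. Among the neurons that had *Syt13*, the medians were 219 CPM in the 36 Pyr←LP and 168 CPM in the 15 Pyr←ORBvl neurons, so the types were apart in how many neurons held a count more than in the level of those that did.

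The detected share of *Syt13* differed between the types (p = 9.19e-05 in Fisher's exact test, two-sided, adjusted p = 0.0458 over 7542 genes). By this test 16 of the 7542 genes (0.212%) were called, and *Syt13* was the 1 member among them. The adjusted p lay close to the threshold, and the call was lost when any of 13 of the 17 title prefixes was left out (adjusted p from 0.0232 to 0.140 over the 17, highest without prefix 902). It was 0.0441 when a neuron needed 5 counts to be counted, 0.0511 over 8941 genes with at least 1 count in 10 neurons, 0.0519 without Pyr←LP neuron 8 and 0.111 with all 91 neurons. Of the 65 neurons with at least 100000 counts, each thinned to that depth, 26 of 35 Pyr←LP and 9 of 30 Pyr←ORBvl neurons kept a *Syt13* count (Fisher's exact test, p = 4.78e-04, adjusted p = 0.117).

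On the log2(FPKM + 1) scale a neuron without a count enters at the lowest value. A difference of means there depends on how many neurons held a count as well as on their level. On this scale limma gave a difference of -2.56 for *Syt13* (SE 0.63, adjusted p = 0.0231), with 49 of 7542 genes (0.65%) called. Without Pyr←LP neuron 8 it was -2.64 (SE 0.64, limma adjusted p = 0.0204). With edgeR on the counts, the log2 fold change was -1.28 (SE 0.75, adjusted p = 0.629), which was not past the threshold. It was -1.51 with DESeq2 (adjusted p = 0.802), and -2.59 (SE 1.16) with title prefix as a block (edgeR adjusted p = 0.297). Sums per title prefix gave -3.94 (edgeR adjusted p = 0.966), all 91 neurons -0.91 (edgeR adjusted p = 0.846) and limma with a pseudocount of 0.1 in place of 1 gave -3.98 (adjusted p = 0.0129).

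**Figure D3:**
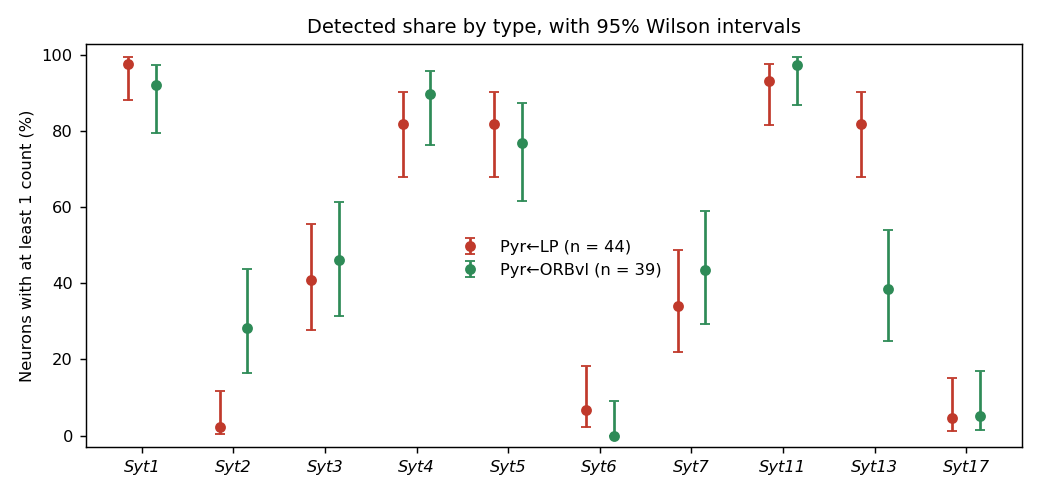
Percent of kept neurons with at least 1 count of each member, for 44 Pyr←LP (red) and 39 Pyr←ORBvl (green) neurons, with 95% Wilson intervals. The intervals of the types are apart for *Syt13* (68.0% to 90.5% against 24.9% to 54.1%) and for *Syt2* (0.402% to 11.8% against 16.5% to 43.8%), and overlap for the other 8 members. *Syt2* did not reach the filter of the main test. The share of all genes with intervals apart was not counted.

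The direction of *Syt13* was also examined within title prefixes. The share of neurons with *Syt13* was higher in Pyr←LP in 12 of 14 prefixes that held both types and equal in 2, although most prefixes hold few neurons of a type. The mean CPM was higher in Pyr←LP neurons in 10 of 14. An exact Cochran-Mantel-Haenszel test stratified by prefix gave p = 2.22e-04 for *Syt13*, which did not pass after adjustment over 8941 genes (adjusted p = 0.188). By that test 0 genes were called, and 495 had an unadjusted p under 0.05. The Fisher test called 14 of the same 8941 genes (0.157%).

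**Figure D4:**
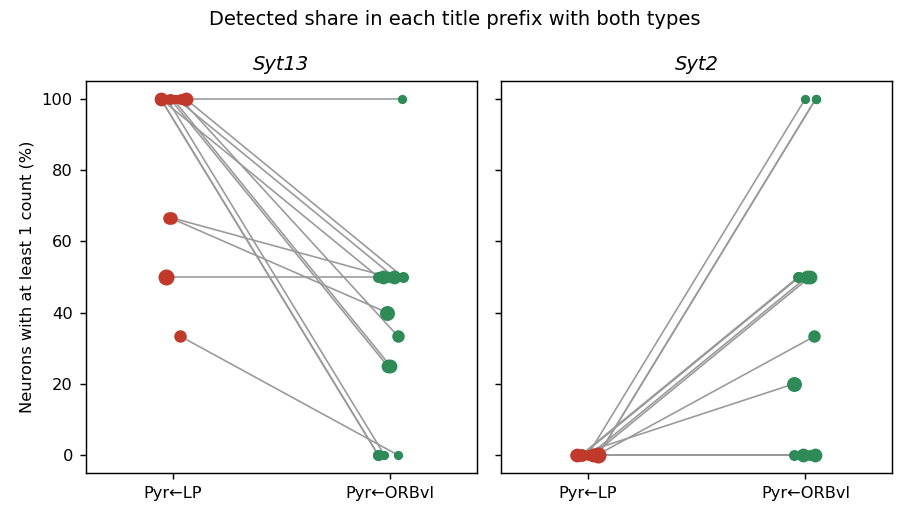
Percent of kept neurons with at least 1 count of *Syt13* (left) and *Syt2* (right) in each of the 14 title prefixes with both types. A line joins the types of a prefix, and dot area grows with the number of neurons behind the point. For *Syt13* 12 lines fall toward Pyr←ORBvl and 2 are level, and for *Syt2* 9 rise and 5 are level. No *Syt2* line could fall, since no Pyr←LP neuron of these 14 prefixes had a *Syt2* count.

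Depth and markers of the neurons with and without *Syt13* were set side by side. Among Pyr←ORBvl neurons the median total was 446424 counts in the 15 with *Syt13* and 399498 in the 24 without. *Fezf2* had a count in 10 of the 15 and 17 of the 24, and *Slc17a7* in 12 and 19. *Pvalb* was present in 5 and 8, at least 1 of *Slc32a1*, *Gad1* and *Gad2* in 3 and 5, and an astrocyte marker in 4 and 9. Among Pyr←LP neurons the median total was 446313 counts in the 36 with *Syt13* and 305046 in the 8 without. *Fezf2* was present in 15 of the 36 and 3 of the 8, *Slc17a7* in 27 and 5, *Pvalb* in 7 and 4, and an astrocyte marker in 10 and 5. At least 1 of *Slc32a1*, *Gad1* and *Gad2* had a count in 8 of the 36 and 1 of the 8. The part of depth and of these transcripts in the *Syt13* values was not tested beyond the thinning above, which made library totals equal but not the number of detected genes. *Syt2* and *Syt13* occurred together in 4 Pyr←ORBvl neurons.

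*Syt17* (chromosome 7, 118380717 to 118448222, minus strand), also called B/K protein, was found in 2 neurons of each type. Pyr←ORBvl neuron 6 had 658 counts (669 CPM), which is 91.5% of the *Syt17* CPM of its type, and Pyr←ORBvl neuron 4 had 75. The 2 Pyr←LP neurons had 1 and 5 counts.

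**Figure D5:**
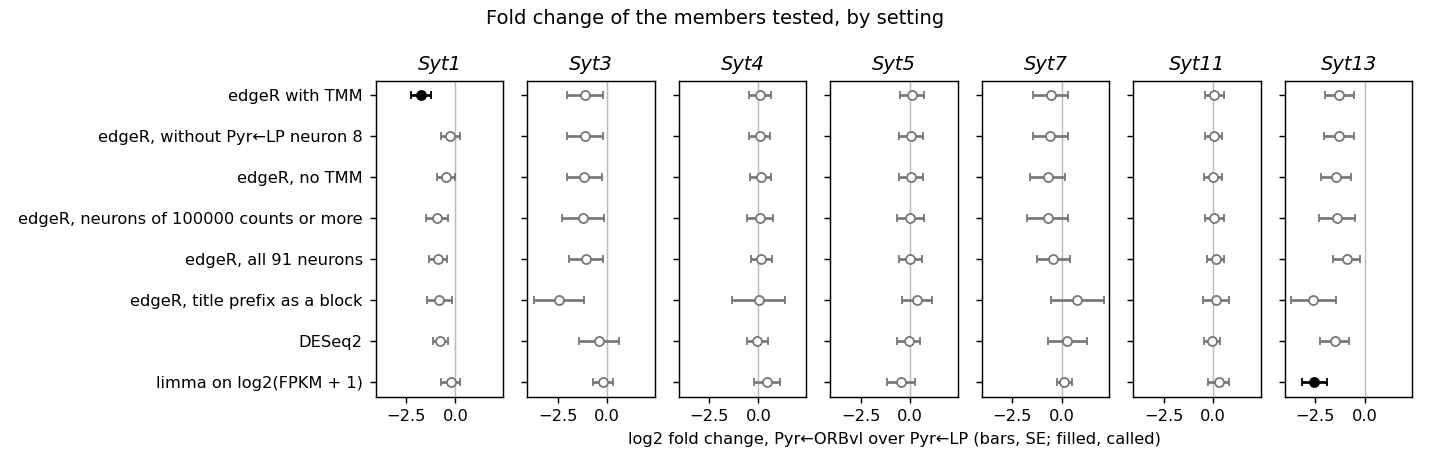
Log2 fold change (Pyr←ORBvl over Pyr←LP) of the 7 members that passed the filter, with SE bars, in 8 settings of the test; filled points were called. *Syt1* is called in the first setting alone and *Syt13* with limma alone, and the other 5 members are not called in any setting shown.

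Of the 7 members tested, 3 had a positive and 4 a negative log2 fold change, with a median of -0.55 against 0.07 for all 7542 genes. Among all genes called, those higher in Pyr←LP neurons were 104 of 170 with TMM and 29 of 87 without. They were 25 of 66 with TMM when neuron 8 was left out, 16 of 40 without prefix 822 and 14 of 40 without prefix 830. Of 19 further C2-domain relatives examined (other synaptotagmins, synaptotagmin-like proteins, extended synaptotagmins, Doc2 proteins and rabphilin), 5 could be tested and 0 were called by edgeR, where 2.25% of all genes were. The largest log2 fold changes among them were 1.16 for *Esyt2* (SE 0.96, edgeR adjusted p = 0.853), a tether between endoplasmic reticulum and plasma membrane, and -1.11 for *Syt16* (SE 0.84, adjusted p = 0.810). *Syt16* was the most widely found of the relatives, with a count in 20 of 44 and 21 of 39 neurons and mean FPKM of 58.8 and 30.7.

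Of 15 partners in vesicle fusion, 13 were tested and 0 were called by edgeR, against the same 2.25% of all genes, so neither count of 0 sets a list apart. The median log2 fold change was -0.20, with 4 positive and 9 negative values. The plasma membrane SNARE *Stx1a* had -1.39 (SE 0.70, edgeR p = 0.0490, adjusted p = 0.484), and *Rims1*, a scaffold of the active zone, had -1.20 (SE 0.81, adjusted p = 0.735). *Snap25*, the partner SNARE bound by *Syt1*, had a count in every kept neuron and a log2 fold change of -0.08 (SE 0.36).

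Over the 83 neurons of both types, the members did not vary closely together. Between the 5 broadly detected members, the 10 Spearman correlations of log2(CPM + 1) over the 83 neurons lay between 0.01 and 0.38. The highest was that of *Syt5* with *Syt11*, at 0.23 within Pyr←LP and 0.58 within Pyr←ORBvl neurons. Other pairs also differed within types. *Syt1* with *Syt13* was at 0.06 within Pyr←LP and 0.50 within Pyr←ORBvl neurons, and *Syt5* with *Syt13* at 0.36 and 0.03. Each neuron is a library of its own and depth is unequal between them, so the values are descriptions.

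The genes whose pattern was most like each member were sought among 1932 genes detected in at least 50% of the 83 neurons. For *Syt11* these were *Prnp* (rho = 0.61), *Gm14703* (0.51) and *Atp1b1* (0.47). For *Syt5* they were *Syngr3* (0.48), *Rtn1* (0.45) and *Syt11* (0.38). For *Syt13* they were *Becn1* (0.45), *Ndfip1* (0.45) and *Jmjd1c* (0.44). *Syt4* was closest to its overlapping antisense gene *Gm26658* (0.79). *Syt1* had no close partner, with 0.37 for *Arl6ip1*, 0.35 for *Gm26596* and 0.33 for *Serinc1*.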

How the data were processed

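Patch-seq libraries of 91 wild-type mouse L5 Pyrs were made with a Smart-seq2-based kit that carries no molecular identifiers and does not mark strand. The authors deposited raw counts of each gene, made from reads aligned with STAR 2.5.3 to GRCm38 with a RefSeq annotation, freed of PCR duplicates and counted when uniquely aligned. The authors also deposited FPKM values. In the files counts and FPKM were 0 in the same places. For each of the 10 members, all values implied nearly the same gene length (15863 to 15875 bases for *Syt1*).

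Types were taken from the labels. Neurons were kept with a total of at least 500 counts and a sum of log2(count + 1) over *Slc32a1*, *Gad1* and *Gad2* of at most 7, the rule of the study, which left 83. No total was under 500, and this set is not identical to the one the study kept. The 7542 genes that reached 5 counts in 10 or more neurons were tested in R 4.3.3 with edgeR 4.0.16, by a robust quasi-likelihood fit after TMM scaling, with p adjusted by Benjamini and Hochberg. Calls needed an adjusted p below 0.05 and a change of more than 2-fold. Standard errors are the log2 fold change divided by the square root of F. DESeq2 1.42.0, the tool of the study, and limma 3.58.1 on log2(FPKM + 1) or log2(FPKM + 0.1) were alternatives. Shares of neurons were tested with two-sided Fisher's exact tests and given 95% Wilson intervals, which cover the sampling of neurons and not amplification error. Tables and plots used Python 3.11.15, pandas 2.3.3, numpy 2.4.6 and matplotlib 3.10.9. The tests were checked on simulated counts with known changes. CPM are per library total unless TMM is named. Title prefixes that differ only by a hyphen were read as 1, which gives 17 prefixes, 14 with both types. Positions are from GENCODE M21, which names 32724 of 34678 gene symbols.

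The members and lists were chosen with earlier results of these data known. All 10 members are named. From the lists of 19 C2-domain relatives and 15 fusion partners, genes called were to be named, or else the 2 whose log2 fold change was farthest from 0. *Snap25* is also named as a marker, and *Syt16* for its detection. The 3 genes most like each member detected in at least 50% of neurons are named, except that for *Syt4* only the closest is reported here.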

Additional observations from a re-analysis of the deposited data

How the results depend on the processing

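Alternatives moved the counts of genes called from 170. DESeq2 called 43 genes, DESeq2 with poscounts size factors 29, library totals without TMM 87, limma 49 with a pseudocount of 1 and 55 with 0.1, neurons with at least 100000 counts 43, and all 91 neurons with the nearly identical pair averaged 106. Sums per title prefix called 3 of 6291 genes, and the fit with no filter called 4950 of 18100. Members called fell from 1 to 0 with DESeq2 under either size factor, without TMM, with all 91 neurons (pair averaged or not), in the neurons of at least 100000 counts, with title prefix as a block and with sums per prefix. It was 3 with no filter (*Syt2*, *Syt6* and *Syt17*). The filter of 1 count called 223 genes, and 233 with the block, and the 1 member called was then *Syt2*, while with limma it was *Syt13*. Leaving out single prefixes or Pyr←LP neuron 8 (also with the filter of 1 count or with limma) gave 40 to 192 genes and 0 or 1 member (*Syt1* with prefixes left out, and without neuron 8 *Syt2* with the filter of 1 count and *Syt13* with limma), with 40 without prefix 822, 40 without 830, 50 without 831 and 66 without neuron 8. *Syt1* was not called without prefix 822 (-0.27), 823 (-1.78), 830 (-0.80), 831 (-0.71), 914 (-1.81) or 916 (-1.79). Genes whose detected share differed rose from 16 to 31 at 5 counts and were 0 when stratified by prefix, and 4 to 16 with prefixes or neuron 8 left out, at 10 or fewer without 822, 823, 830, 831, 902, 907, 915, 916 or 919. The 1 member called (*Syt13*) became 0 with all 91 neurons, with thinning, with the filter of 1 count, when stratified, and in the left-out sets other than those without 727, 810, 811 or 915, with differences in detected share between -49.7 and -39.5 percentage points.

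Some members that were not called changed sign. *Syt4* was -0.054 with DESeq2, -0.030 with poscounts and -0.54 in sums per prefix. *Syt5* was -0.072 with DESeq2, -0.53 in sums, and -0.46 and -0.64 with limma. *Syt7* was 0.30 with DESeq2, 0.79 with the block (0.75 with the filter of 1 count), 1.13 in sums, and 0.14 and 0.44 with limma. *Syt11* was -0.051 with DESeq2 and -0.011 without TMM. *Syt3* kept its sign but moved widely, at -0.41 with DESeq2, -2.42 with the block, -4.15 in sums, and -0.18 and -0.11 with limma. Left-out sets, which include limma without neuron 8, spanned -0.091 to 0.36 for *Syt4*, -0.59 to 0.33 for *Syt5*, -0.89 to 0.12 for *Syt7* and -0.12 to 0.23 for *Syt11*. The detected share in Pyr←ORBvl minus Pyr←LP turned to -9.32 points for *Syt3* and 0.758 for *Syt5* at 5 counts, and to -7.14 for *Syt3*, -2.38 for *Syt4* and 2.86 for *Syt5* after thinning. Left-out sets spanned -1.86 to 13.6 points for *Syt3*. With GENCODE lengths the mean in Pyr←ORBvl neurons was 61.9 for *Syt1* and 179 for *Syt11*. The cause of these changes was not tested.

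Poscounts, the filter of 1 count, the fit on neurons with at least 100000 counts, leaving out neuron 8, the stratified test, prefixes left out of the detection test and GENCODE lengths were chosen after seeing the data. Neurons are the unit and share mice that the labels do not name. Shallow libraries limit the sparse members, since a 0 in a neuron with 2410 counts says little about a gene of low level.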

Other observations

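The 8 neurons outside the comparisons were set aside for their GABAergic counts, 3 Pyr←LP and 5 Pyr←ORBvl. All 8 had *Syt1* (43 to 540 counts), *Syt4* (1 to 784) and *Syt11* (29 to 780). *Syt13* was present in 7 of the 8, which includes all 5 Pyr←ORBvl neurons, and *Syt2* in 1, Pyr←ORBvl neuron 29 with 14 counts. The nearly identical Pyr←ORBvl neurons 5 and 11, whose names carry different title prefixes, had 507 and 522 counts of *Syt13*, 149 and 179 of *Syt5*, 62 and 72 of *Syt1*, and 780 and 380 of *Syt11*.

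Pyr←LP neuron 34, with 11013 detected genes the highest of all 91 neurons, held 32 counts of *Syt6* and 89 of *Syt17*. Its *Syt6* count was the highest of the 4 neurons that had one.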
